A study of Mus musculus with 8 samples.

Results

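The transcripts of the TGF-β ligands, their receptors, the SMAD proteins that carry their signal and the SMAD inhibitors were followed in resting and LPS-activated peritoneal macrophages of FURIN deficient and wild-type mice. The 10 members were taken from a list of names and not by their values, though earlier results of these data were known. The ligands were Tgfb1, Tgfb2 and Tgfb3, and the receptors Tgfbr1 and Tgfbr2. The receptor-regulated SMADs were Smad2 and Smad3, the common SMAD was Smad4, and the inhibitors were Smad7 and Skil. The members are 10 of the 20887 genes that the array's probes name, each read through its brightest probe. All 10 passed the filter on dim probes, which required a mean log2 intensity of 6 or more.

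Peritoneal cells of C57BL/6 mice were plated, freed of nonadherent cells by washing, and either left unstimulated or stimulated with LPS at 1 µg/ml for 1, 4 or 24 h. LPS is the cell wall component of Gram-negative bacteria that activates Toll-like receptor 4. The KO cells came from LysMCre-fur(fl/fl) mice and the WT cells from littermates, whose own floxed or Cre alleles were not given in the sources used here, nor was the age of the mice. LysMCre is expressed from the Lyz2 locus in myeloid cells, so other cell types in the cultures keep Furin. Each of the 8 two-colour arrays held the WT and the KO RNA of 1 biological replicate at 1 time point, which gave 2 arrays per time point and 16 channels in all. Replicate 1 carried the KO RNA in Cy5 and replicate 2 carried it in Cy3, so that replicate and dye cannot be told apart. The sources did not say how many animals a replicate held, and the p-values below measure only the spread between these samples.

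TGF-β is made as a precursor that proprotein convertases, FURIN among them, cut into a latency peptide and a mature growth factor. The mature ligand binds TGFBR2, which recruits and phosphorylates TGFBR1, and the activated receptor phosphorylates SMAD2 and SMAD3, which enter the nucleus with SMAD4. SMAD7 blocks the receptor, and SnoN, the product of Skil, holds SMAD complexes in check on DNA. In macrophages the pathway is known for limiting inflammatory activation. Arrays measure transcripts, so neither the cleavage of the precursors nor SMAD phosphorylation was seen here.

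The spot detection was alike across the arrays, with 43.8% to 51.3% of the gene spots well above background. The targeted gene was checked first. On the 4 h arrays the log2 ratio of Furin, KO over WT, was 0.00 and 0.33. On the 6 other arrays it lay between -0.85 and -0.55. Furin was thus not lower in the 4 h channels labelled KO, whereas Lyz2, the locus that carries the Cre, was lower there as well, with ratios of -1.04 and -1.13. Whether the Furin probe lies in the deleted part of the gene was not given in the sources used here. All arrays came from 1 slide scanned on 1 day. The unstimulated and 1 h arrays shared a row of the slide and the 4 h and 24 h arrays the other row, so a difference between these pairs of times and a difference between rows cannot be told apart. All 7 macrophage markers measured, Adgre1 and Csf1r among them, were well above background in every channel. Markers of B cells, T cells, mast cells and dendritic cells were detected too. Because the cultures are bulk samples, a fall in the number of cells of a type and a fall in RNA per cell cannot be told apart.

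Promoter sequences were available for 5 of the members, Tgfb1, Tgfb2, Tgfbr1 (with 2 start sites), Tgfbr2 and Smad3. The 250 bases before the start are shown for Tgfbr1, Tgfbr2 and Smad3, the receptor and SMAD genes that were called lower in both genotypes at 4 h and 24 h of LPS, as described below. They are RefSeq sequences of the GRCm38.p6 build, written 5′ to 3′ along the gene, at chr4:47352972-47353221, plus strand, chr9:116175364-116175613, minus strand and chr9:63757995-63758244, minus strand. Capitals mark the SMAD box, CAGAC, searched on both strands.
Tgfbr1: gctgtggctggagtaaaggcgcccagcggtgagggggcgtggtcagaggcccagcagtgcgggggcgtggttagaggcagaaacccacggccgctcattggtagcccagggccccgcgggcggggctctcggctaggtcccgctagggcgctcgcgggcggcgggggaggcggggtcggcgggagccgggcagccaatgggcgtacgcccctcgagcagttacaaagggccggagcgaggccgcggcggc
Tgfbr2: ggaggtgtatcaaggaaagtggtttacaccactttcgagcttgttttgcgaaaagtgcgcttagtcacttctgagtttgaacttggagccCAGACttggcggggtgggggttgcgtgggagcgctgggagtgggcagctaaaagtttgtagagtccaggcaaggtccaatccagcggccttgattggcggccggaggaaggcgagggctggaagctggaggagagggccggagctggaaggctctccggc
Smad3: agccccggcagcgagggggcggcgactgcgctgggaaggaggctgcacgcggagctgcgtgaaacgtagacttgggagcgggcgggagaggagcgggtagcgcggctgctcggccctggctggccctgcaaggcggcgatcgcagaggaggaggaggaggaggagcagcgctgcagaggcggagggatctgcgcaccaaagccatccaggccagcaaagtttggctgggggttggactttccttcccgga
A SMAD box occurred once here, in Tgfbr2, where it began 160 bases before the start. Over all 6 promoters of the members, 3 held the SMAD box, namely those of Tgfb2, Tgfbr2 and the second start of Tgfbr1, against 42.2% of all 32851 promoters of the same length. None of the 6 held the AP-1 site TGACTCA or its reverse complement TGAGTCA, present in 4.46% of all promoters. None held the CRE, TGACGTCA, present in 1.55%.

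LPS changed 7 of the 10 members by 4 h, and every change called in both genotypes had the same direction in each. At 1 h Skil and Tgfb3 rose and Tgfbr1 fell. At 4 h Tgfbr1, Tgfbr2, Smad3, Tgfb2 and Tgfb3 fell, whereas Smad2 and Skil rose. At 24 h Tgfb2, Tgfbr1, Tgfbr2, Tgfb3 and Smad3 were below the unstimulated level, and the differences of Smad2 and Skil did not pass the threshold. All comparisons with unstimulated cells share the same unstimulated arrays. A change was called at a Benjamini-Hochberg adjusted p under 0.05 over all genes and unnamed transcripts tested, in limma's fit of the single channels, and levels and differences are on the log2 scale throughout.

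In WT macrophages 3 of the 10 members were called at 1 h, 2 of them higher and 1 lower. Over all 36927 features tested, 8.50% were called there, 3.35% higher and 5.15% lower, a count of 3139 that fell to 1814 without unstimulated replicate 1, 2075 without 1 h replicate 1 and 2092 without 1 h replicate 2. At 4 h 7 members were called, 2 higher and 5 lower, beside 34.7% of all features, 15.5% higher and 19.2% lower. At 24 h 5 members were called, all lower, beside 30.4% of all features, 13.5% higher and 16.8% lower. Between 4 h and 24 h 5 members were called, 1 higher and 4 lower, beside 29.7% of all features, 15.1% higher and 14.6% lower. The median difference of the members was -0.65 at 4 h and -0.65 at 24 h, and that of all features was 0.00 and -0.01.

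In KO macrophages 3 members were called at 1 h, 2 higher and 1 lower, beside 7.53% of all features, 3.08% higher and 4.45% lower. Those 2782 features became 1461 without unstimulated replicate 1, 1729 without 1 h replicate 1, 1477 without 1 h replicate 2, 1854 with the processed signals and 4274 with the replicate block. At 4 h 7 members were called, 2 higher and 5 lower, beside 36.0% of all features, 16.2% higher and 19.7% lower. At 24 h 6 members were called, all lower, beside 28.6% of all features, 12.8% higher and 15.9% lower. The sixth was Tgfb1, which missed the threshold in WT cells. Between 4 h and 24 h 6 members were called, 1 higher and 5 lower, beside 30.7% of all features, 15.6% higher and 15.1% lower. The WT and KO channels share arrays, so the 2 sets of counts are not independent of each other.

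**Figure D1:**
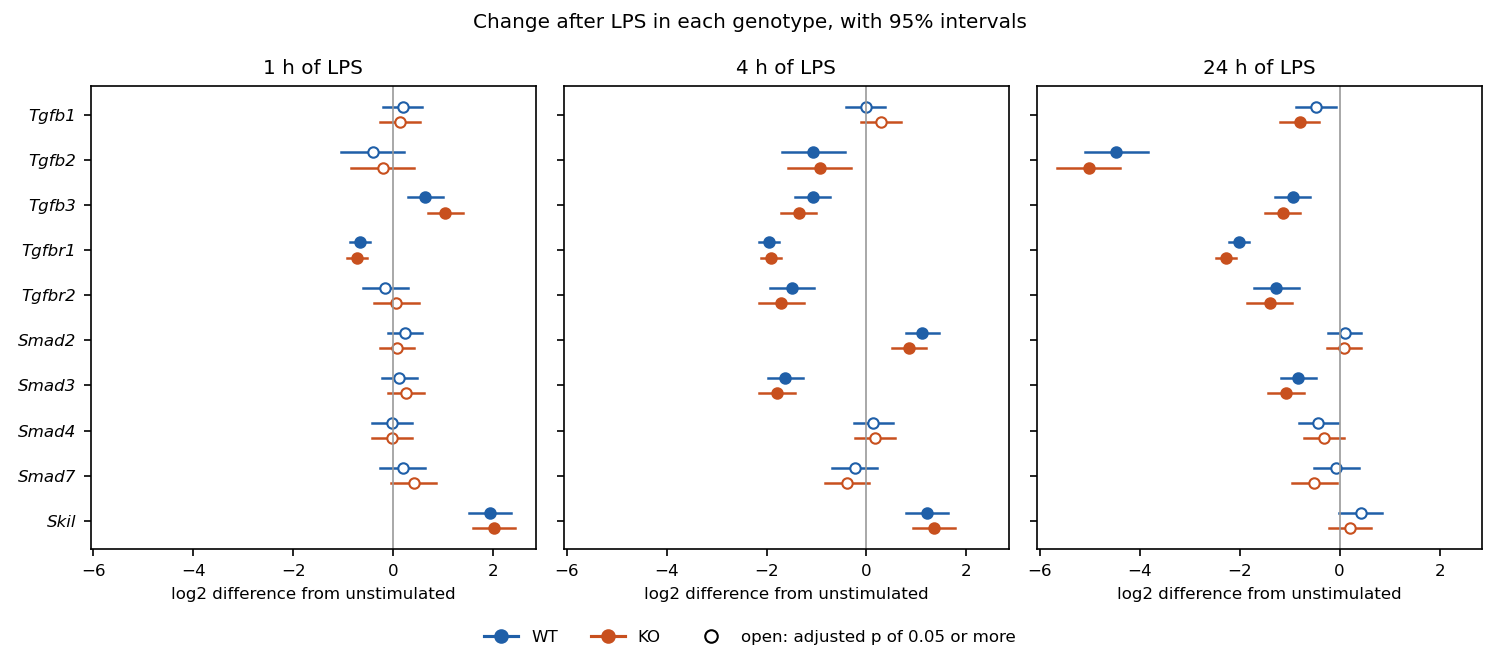
Difference in log2 intensity from unstimulated cells (x axis) for the 10 genes (y axis) after 1, 4 and 24 h of LPS, in WT (blue) and KO (orange) macrophages. Points are limma estimates from 2 arrays per time point, bars are 95% intervals, and open points have an adjusted p of 0.05 or more. The Tgfb2 points at 24 h, -4.47 and -5.02, lie farthest from zero.

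Among the ligands, Tgfb2 showed the largest change of the 10 genes in this experiment. Values of a group are given in the order replicate 1, replicate 2. Its log2 intensity in WT cells was 12.12 and 11.42 without LPS, 11.84 and 10.88 after 1 h, 10.93 and 10.49 after 4 h, and 7.16 and 7.43 at 24 h. In KO cells it was 11.71 and 11.87, then 11.39 and 11.76, then 11.02 and 10.702, and finally 6.66 and 6.89. The 24 h channels lay below all other channels in both genotypes, and 1 of the 2 KO channels at 24 h was no longer well above background. The difference from unstimulated cells at 24 h was -4.47 ± 0.29 (SE, 2 arrays per time) in WT, a 22.2-fold fall (adjusted p = 5.16e-08, limma), and -5.02 ± 0.29 in KO (adjusted p = 1.84e-08, limma). With the processed signals these were -5.54 and -7.07. At 4 h it was -1.06 in WT (adjusted p = 0.0107, limma) and -0.93 in KO (adjusted p = 0.0222, limma). The 4 h call was lost in WT without unstimulated replicate 1 (-0.72, adjusted p = 0.157, limma) or 4 h replicate 2 (-0.83, adjusted p = 0.114, limma), and in KO without unstimulated replicate 2 (-0.86, adjusted p = 0.0835, limma) or 4 h replicate 2 (-0.76, adjusted p = 0.142, limma). From 4 h to 24 h the fall was -3.41 in WT and -4.09 in KO. A second Tgfb2 probe gave -3.87 in WT and -4.20 in KO at 24 h.

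All 7 peritoneal macrophage markers measured had a lower mean log2 intensity at 24 h than without LPS, by unlike amounts. Timd4, a phosphatidylserine receptor of these cells, went from a mean log2 intensity of 13.00 to 7.71 in WT between unstimulated cells and 24 h, and Gata6, their lineage transcription factor, from 10.23 to 7.64. Adgre1, which encodes F4/80, went from 16.01 to 15.76, Itgam from 14.08 to 12.76 and Icam2 from 13.61 to 12.81. The summed intensity of the 7 macrophage markers measured, of 8 listed, ranged from 405416 to 608718 in unstimulated and from 120421 to 181379 in 24 h channels, and none was at background. Lyz2, which is lower in KO cells, and Csf1r were the brightest of the 7 in unstimulated WT cells, so they weigh most in the sum. In WT Lyz2 went from 17.94 to 15.85 and Csf1r from 17.60 to 15.57. The 6 mast cell markers summed to 8152 to 14861 in unstimulated and 1839 to 3887 in 24 h channels, all well above background. The 6 B cell markers summed to 65645 to 106404 and then 38795 to 48764, and the 5 neutrophil markers measured to 6841 to 7972 and then 24132 to 66867, with S100a9 and Retnlg well above background in no channel. In WT S100a8 went from 11.36 to 15.13 and Camp from 7.90 to 9.72, whereas Mmp8 went from 12.14 to 10.49. The part of these cell types in the fall of Tgfb2 was not tested. The 10 markers of mesothelial cells and fibroblasts summed to 1178 to 1388 in unstimulated and 2436 to 3085 in 24 h channels, with Pdgfra well above background in no channel and Upk3b in 1 of 16. In WT Dcn went from 7.61 to 10.46, whereas Msln went from 6.70 to 6.42 and Krt8 from 7.11 to 6.48. Of the 4 dendritic cell markers, Cd209a went from 12.05 in WT to a level well above background in no channel at 24 h, and Ccr7 from 12.36 to 11.44, Zbtb46 from 7.05 to 7.08 and Flt3 from 7.17 to 8.73.

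Over the 16 channels and 11010 eligible genes, Alox15, a lipoxygenase of resident peritoneal macrophages, and Qpct were among the genes with profiles most like that of Tgfb2, each with a Pearson r of 0.989. Alox15 differed from unstimulated WT cells by -6.79 at 24 h and Qpct by -2.15. These channels share arrays, dyes and time points, so these correlations, and those given below for Tgfb1 and Tgfbr1, only describe the profiles.

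Tgfb3 moved in both directions. Its log2 intensity in WT cells was 7.80 and 8.03 without LPS, 8.34 and 8.77 after 1 h, 6.93 and 6.74 after 4 h, and 7.10 and 6.87 at 24 h. The KO channels read 8.29 and 8.28, then 9.50 and 9.16, then 6.84 and 7.02, and 7.14 and 7.15 at 24 h. The 1 h channels were the highest and the 4 h and 24 h channels the lowest within each genotype, with no overlap between 1 h and unstimulated cells. The rise at 1 h was 0.64 ± 0.16 in WT (adjusted p = 0.0256, limma) and 1.04 ± 0.16 in KO (adjusted p = 0.00102, limma). The fall at 4 h was -1.08 in WT (adjusted p = 9.68e-05, limma) and -1.35 in KO (adjusted p = 1.17e-05, limma), where 1 of the 2 WT channels at 4 h was not well above background. With the processed signals these falls were -2.54 and -2.90, and those at 24 h, -0.94 and -1.14, were -2.03 and -2.17. In WT the 1 h call was lost without unstimulated replicate 1 (0.52, adjusted p = 0.250, limma), unstimulated replicate 2 (0.74, adjusted p = 0.0636, limma) or 1 h replicate 2 (0.42, adjusted p = 0.196, limma). It was also lost without normalization between arrays (0.55, adjusted p = 0.147, limma) and with the scanner's processed signals, where the KO rise of 1.05 was not called either (adjusted p = 0.0692, limma). Tgfb3 is spotted 10 times on each array, and the SD of the ratio among these spots was 0.07 to 0.18.

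Tgfb1, the ligand best known in immune cells, changed least among the ligands. Its log2 intensity in WT cells was 11.79 on both unstimulated arrays, 11.96 and 11.98 after 1 h, 11.86 and 11.68 after 4 h, and 11.26 and 11.38 at 24 h. KO cells gave 11.95 and 11.63, then 11.99 and 11.84, then 12.38 and 11.78, and 11.21 and 10.77 at 24 h. The 24 h channels were the lowest in both genotypes. The 24 h difference was -0.80 ± 0.18 in KO (adjusted p = 0.00392, limma) and -0.47 ± 0.18 in WT (adjusted p = 0.0746, limma), with -0.47 called in WT once the replicate number was a block (adjusted p = 0.00413, limma) or without either 4 h array (adjusted p = 0.0359 and 0.0358, limma). Between 4 h and 24 h the difference was -1.09 in KO (adjusted p = 0.000342, limma) and -0.45 in WT, where it passed with the replicate block alone (adjusted p = 0.0882 without and 0.00545 with it, limma). The KO call at 24 h against unstimulated cells was lost without unstimulated replicate 1 (-0.65, adjusted p = 0.0676, limma) or 24 h replicate 2 (-0.58, adjusted p = 0.0737, limma), and without normalization between arrays (-0.57, adjusted p = 0.0511, limma). At 1 h and 4 h no change was called, with 95% intervals of -0.21 to 0.58 and -0.41 to 0.38 in WT and of -0.27 to 0.53 and -0.11 to 0.69 in KO, although without 4 h replicate 2 the KO difference at 4 h passed (0.58, adjusted p = 0.0278, limma). The genes whose profiles were most like that of Tgfb1 were Trp73, Mmp17 and Dlx3, with a Pearson r of 0.919, 0.918 and 0.918 over the 16 channels.

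Both receptors were called lower at 4 h and at 24 h than in unstimulated cells. Tgfbr1, the signalling type I receptor, had a log2 intensity of 11.57 and 11.56 in unstimulated WT cells, 10.92 and 10.88 after 1 h, 9.60 and 9.61 after 4 h and 9.55 and 9.56 at 24 h. In KO cells it was 11.62 and 11.53, then 10.77 and 10.91, then 9.73 and 9.60, and 9.23 and 9.38 at 24 h. All channels with LPS lay below all unstimulated channels. In WT the difference was -0.66 ± 0.09 at 1 h (adjusted p = 0.000366, limma), -1.96 ± 0.09 at 4 h (adjusted p = 1.61e-09, limma) and -2.01 ± 0.09 at 24 h (adjusted p = 2.18e-09, limma). In KO it was -0.73, -1.91 and -2.27. The second, dimmer Tgfbr1 probe fell less, by 1.04 at 4 h and by 0.90 at 24 h in WT. From 4 h on the KO channels fell by a further 0.36 to 24 h (adjusted p = 0.00844, limma), against -0.05 in WT (95% interval -0.26 to 0.15). The sign of both turned without normalization between arrays, to 0.17 in KO (adjusted p = 0.418, limma) and to a called rise of 0.47 in WT (adjusted p = 0.00654, limma). The KO call was lost with the processed signals (-0.0025, adjusted p = 0.990, limma), with the mean of all probes (-0.24, adjusted p = 0.0618, limma), and without 4 h replicate 1 (-0.29, adjusted p = 0.0907, limma) or 24 h replicate 1 (-0.29, adjusted p = 0.108, limma).

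Tgfbr2, the ligand-binding type II receptor, had a log2 intensity of 13.51 and 13.20 in unstimulated WT cells, 13.24 and 13.15 after 1 h, 11.82 and 11.91 after 4 h and 12.27 and 11.90 at 24 h. The KO channels read 13.09 and 13.65, then 13.36 and 13.50, then 11.45 and 11.88, and 11.79 and 12.15 at 24 h. Unlike Tgfbr1 it was not called at 1 h, with 95% intervals of -0.61 to 0.29 in WT and -0.39 to 0.51 in KO. All 4 h and 24 h channels lay below all earlier ones. The difference at 4 h was -1.49 ± 0.21 in WT (adjusted p = 4.81e-05, limma) and -1.71 ± 0.21 in KO (adjusted p = 1.35e-05, limma), and at 24 h -1.27 in WT (adjusted p = 0.000277, limma) and -1.40 in KO (adjusted p = 0.000124, limma). From 4 h to 24 h Tgfbr2 was not called, except in KO without normalization between arrays (0.76, adjusted p = 0.0281, limma, against 0.31). A second Tgfbr2 probe gave -0.77 at 4 h and -0.66 at 24 h in WT. The genes whose profiles were most like that of Tgfbr1 over the 16 channels were Myo9b, Pgm2l1 and Rnf166, with a Pearson r of 0.988 to 0.990.

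**Figure D2:**
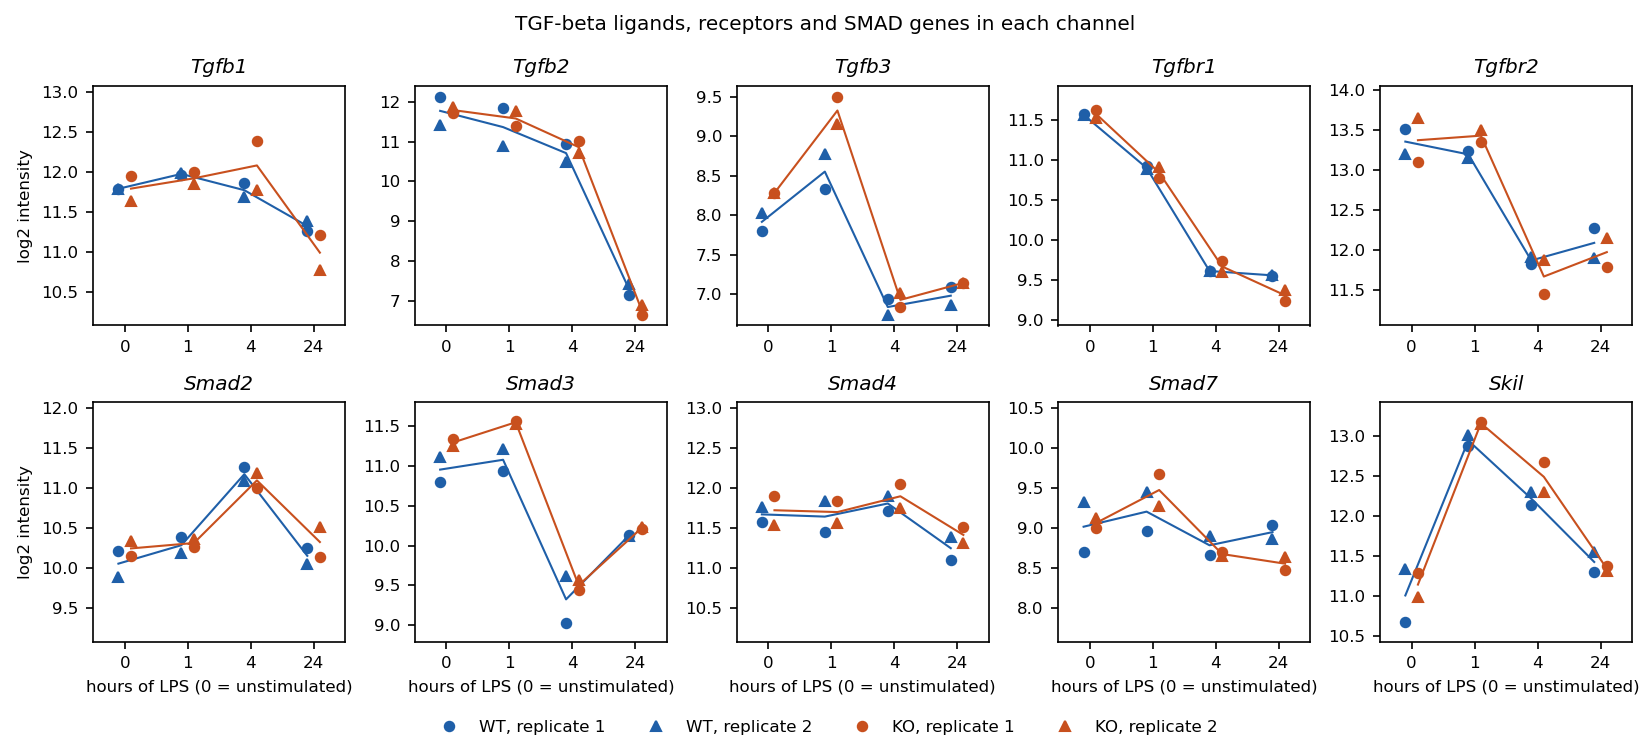
Log2 intensity (y axis) of each gene without LPS (0) and after 1, 4 and 24 h of LPS (x axis, not to scale) in WT (blue) and KO (orange) channels, with circles for replicate 1 and triangles for replicate 2 and lines through the means. The y axes span different ranges. Tgfbr1, Tgfbr2 and Smad3 are lower at 4 h than at 1 h in all channels, and Skil is highest at 1 h.

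The receptor-regulated SMADs moved in opposite directions at 4 h. Smad2 had a log2 intensity of 10.22 and 9.89 in unstimulated WT cells, 10.39 and 10.18 after 1 h, 11.26 and 11.09 after 4 h and 10.25 and 10.06 at 24 h. KO cells gave 10.15 and 10.34, then 10.26 and 10.36, then 11.01 and 11.19, and 10.13 and 10.52 at 24 h. The 4 h channels lay above all others in both genotypes. The rise at 4 h was 1.12 ± 0.16 in WT (adjusted p = 5.00e-05, limma) and 0.85 ± 0.16 in KO (adjusted p = 0.000559, limma). From 4 h to 24 h Smad2 fell by 1.02 in WT (adjusted p = 0.000167, limma) and by 0.77 in KO (adjusted p = 0.00157, limma). The KO calls were lost without normalization between arrays (0.46, adjusted p = 0.0711 at 4 h, limma) and with the scanner's processed signals (0.50, adjusted p = 0.113 at 4 h, limma). Without normalization between arrays the WT values were 0.74 at 4 h and -0.54 from 4 h to 24 h.

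Smad3 had a log2 intensity of 10.80 and 11.10 in unstimulated WT cells, 10.93 and 11.21 after 1 h, 9.03 and 9.62 after 4 h and 10.13 and 10.12 at 24 h. In KO cells it was 11.33 and 11.24, then 11.56 and 11.52, then 9.44 and 9.57, and 10.20 and 10.24 at 24 h. It was lowest at 4 h, intermediate at 24 h and highest at 1 h and without LPS, and in each genotype these levels did not overlap. The fall at 4 h was -1.63 ± 0.16 in WT (adjusted p = 2.14e-06, limma) and -1.79 ± 0.16 in KO (adjusted p = 8.61e-07, limma). Smad3 then rose from 4 h to 24 h by 0.80 in WT (adjusted p = 0.00171, limma) and 0.72 in KO (adjusted p = 0.00366, limma), the single member called higher in that interval. At 24 h the difference from unstimulated cells was -0.82 in WT (adjusted p = 0.00132, limma), and -1.07 in KO (adjusted p = 0.000165, limma). A second Smad3 probe was well above background in 3 of 16 channels and gave -0.13 at 4 h and 0.08 at 24 h in WT. With the mean of both probes the WT differences were -0.88 at 4 h and -0.37 at 24 h. The KO difference at 24 h was then -0.57. From 4 h to 24 h the WT rise was 0.50 without 4 h replicate 1 (adjusted p = 0.0292, limma) and 1.36 without normalization between arrays.

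Smad4, the partner shared by TGF-β and BMP signals, kept a log2 intensity between 11.10 and 12.05 in all channels. In WT cells it was 11.58 and 11.76 without LPS, 11.45 and 11.83 after 1 h, 11.72 and 11.90 after 4 h and 11.10 and 11.39 at 24 h. The KO channels read 11.91 and 11.54, then 11.84 and 11.56, then 12.05 and 11.75, and 11.52 and 11.31 at 24 h. Levels without LPS and at 1 h overlapped in both genotypes. Against unstimulated cells no difference was called, and the 24 h difference was -0.42 in WT (95% interval -0.82 to -0.03) and -0.31 in KO (95% interval -0.70 to 0.09). With the replicate block both passed, at adjusted p = 0.00184 and 0.0156 in limma. A second Smad4 probe gave -0.45 in WT and -0.48 in KO at 24 h, and with the mean of both probes the differences of -0.44 in WT (adjusted p = 0.00249, limma), -0.40 in KO (adjusted p = 0.00518, limma) and, in KO at 4 h, 0.31 (adjusted p = 0.0194, limma) were called. Between 4 h and 24 h it fell by 0.56 in WT (adjusted p = 0.0326, limma), a call lost without any of the arrays of 4 h replicate 1 (-0.64, adjusted p = 0.0545, limma), 4 h replicate 2 (-0.46, adjusted p = 0.165, limma) or 24 h replicate 1 (-0.42, adjusted p = 0.233, limma). The WT fall was -0.14 without normalization between arrays (adjusted p = 0.771, limma) and -0.33 with the processed signals (adjusted p = 0.362, limma). The KO difference over that interval, -0.48, passed with the replicate block (adjusted p = 0.0625 without and 0.000646 with it, limma) and among genes well above background (adjusted p = 0.0365, limma). It also passed without either 1 h array, at -0.49, and with the mean of both probes, at -0.70 (adjusted p = 6.16e-05, limma).

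Of the inhibitors, Skil rose first and furthest. Its log2 intensity was 10.67 and 11.33 in unstimulated WT cells, 12.88 and 13.01 after 1 h, 12.14 and 12.30 after 4 h and 11.30 and 11.55 at 24 h. The KO channels read 11.29 and 10.99, then 13.18 and 13.14, then 12.68 and 12.30, and 11.37 and 11.31 at 24 h. All 1 h channels lay above all 4 h channels, and all 4 h channels above the unstimulated and 24 h channels. The rise at 1 h was 1.94 ± 0.20 in WT, 3.84-fold (adjusted p = 1.95e-05, limma), and 2.02 ± 0.20 in KO, 4.06-fold (adjusted p = 1.65e-05, limma). At 4 h it was 1.21 in WT (adjusted p = 0.000182, limma) and 1.35 in KO (adjusted p = 6.97e-05, limma). At 24 h it was 0.42 in WT (95% interval -0.00369 to 0.84) and 0.20 in KO (95% interval -0.22 to 0.62). Skil then fell from 4 h to 24 h, by 1.15 in KO (adjusted p = 0.000385, limma) and by 0.79 in WT (adjusted p = 0.00639, limma), the WT call being lost without 24 h replicate 1 (-0.67, adjusted p = 0.0818, limma), without normalization between arrays (-0.42, adjusted p = 0.239, limma) and with the processed signals (-0.60, adjusted p = 0.0822, limma). The WT difference at 24 h from unstimulated cells passed with the replicate block (adjusted p = 0.0287, limma) and without unstimulated replicate 2 (0.75, adjusted p = 0.00668, limma), and a second Skil probe gave 2.09, 1.93 and 1.30 at 1, 4 and 24 h in WT and 0.81 at 24 h in KO. With the mean of both probes the 24 h difference was called in WT (0.86, adjusted p = 0.000410, limma) and in KO (0.51, adjusted p = 0.0161, limma), so that the probes disagreed on how far the level had returned by 24 h.

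Smad7, the inhibitory SMAD that TGF-β itself induces, was not called after LPS in either genotype. Its log2 intensity was 8.70 and 9.33 in unstimulated WT cells, 8.96 and 9.44 after 1 h, 8.66 and 8.90 after 4 h and 9.03 and 8.86 at 24 h. The KO channels gave 8.995 and 9.13, then 9.68 and 9.27, then 8.70 and 8.65, and 8.47 and 8.63 at 24 h. In WT the channels of each LPS time overlapped with the unstimulated ones, whereas in KO the 4 h and 24 h channels lay below the earlier ones. The differences from unstimulated cells were 0.19, -0.23 and -0.07 in WT and 0.41, -0.39 and -0.51 in KO at 1, 4 and 24 h. The KO value at 24 h (95% interval -0.96 to -0.06) passed with the replicate block (adjusted p = 0.0455, limma) and, at -0.51, without either 1 h array. At 4 h Smad7 passed without normalization between arrays, at -0.69 in WT (adjusted p = 0.0425, limma) and -0.85 in KO (adjusted p = 0.0123, limma), and with the processed signals, at -0.84 in WT (adjusted p = 0.0368, limma) and -1.01 in KO (adjusted p = 0.0147, limma).

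Whether the loss of FURIN altered these transcripts was asked from the KO over WT ratios within each array. Without the replicate block no member was called at any time point or in the mean over the 4 time points (0 of 10 in each, limma). With it 2 passed in the mean, as given below. Over all 36947 features limma without the block called 0% in unstimulated cells, 0% at 1 h, 0.00812% at 4 h, 0.0244% at 24 h and 0.563% in the mean. The 208 features called in the mean became 1 without unstimulated replicate 1, 7 without 4 h replicate 2, between 23 and 163 without any other array and 0 with the processed signals. At an unadjusted p under 0.05, limma had 1, 2, 0 and 1 members at the 4 time points and 2 in the mean. The t-test named in the study's methods, run on the single channels, had 0, 0, 0 and 1 members at that unadjusted threshold and 0 after adjustment. Over all features the unadjusted counts were 2126, 2018, 1594 and 1263 by limma and 1707, 1754, 1133 and 1516 by the methods' t-test. The difference between the genotypes in the response to LPS was called for no member. With all 8 arrays and no replicate block it was called for no feature (0% for the response after 1 h, 0% after 4 h and 0% after 24 h). No member had an unadjusted limma p under 0.05, a threshold that 516, 1073 and 1230 of all features passed. With the replicate block 0, 13 and 78 features were called, none of them a member. The members past the unadjusted threshold were Smad3 in unstimulated cells (0.34), Tgfb3 (0.77, 95% interval 0.37 to 1.18) and Smad3 (0.47) at 1 h, and Tgfbr1 at 24 h (-0.25, 95% interval -0.47 to -0.03).

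The intervals bound these differences. The mean log2 ratios of the 10 members lay between -0.06 and 0.35, and the half-widths of their 95% intervals between 0.11 for Tgfbr1 and 0.32 for Tgfb2. At single time points the half-widths were 0.22 to 0.65, and for the difference in LPS response 0.31 to 0.91. Tgfb1, whose precursor is a known FURIN substrate, had a mean ratio of -0.02 (95% interval -0.20 to 0.16). Its ratios were 0.16 and -0.16 in unstimulated cells, 0.03 and -0.14 after 1 h, 0.53 and 0.09 after 4 h and -0.05 and -0.61 at 24 h. Replicate 1 was above replicate 2 at each time point, and within an array the 10 Tgfb1 spots had an SD of 0.03 to 0.07. At 1 h the ratios of Tgfb2, -0.45 and 0.88, and of Smad7, 0.72 and -0.18, had opposite signs in the replicates.

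**Figure D3:**
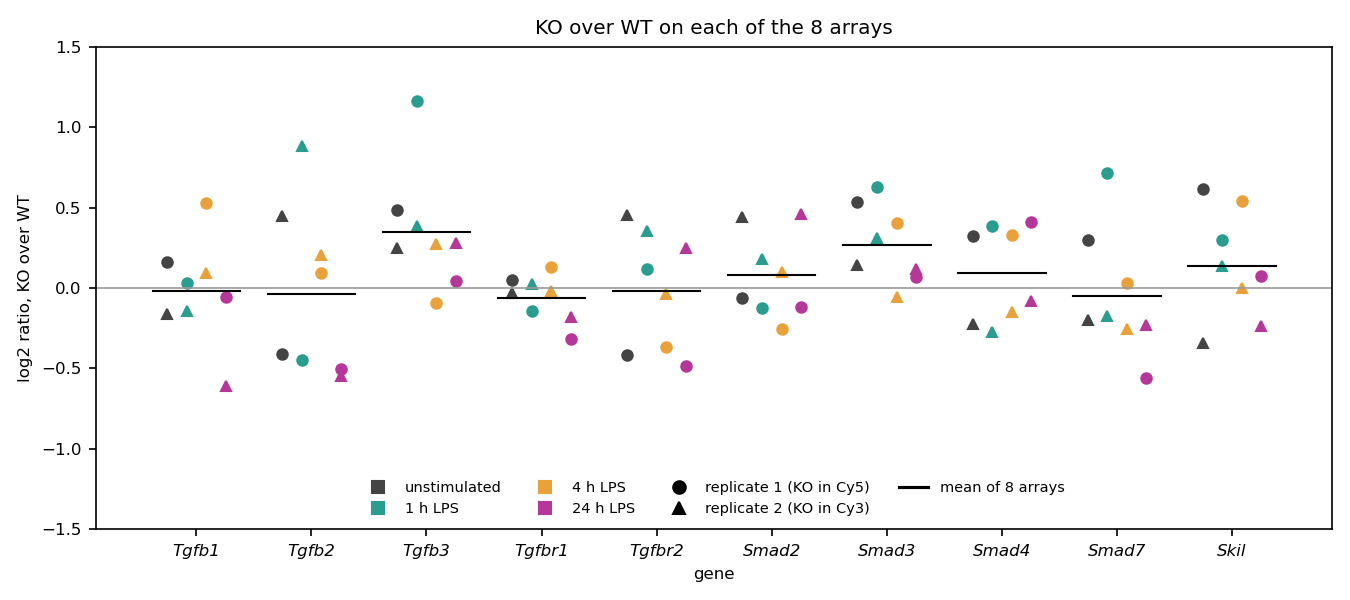
Log2 ratio of KO over WT (y axis) for each of the 10 genes (x axis) on the 8 arrays, coloured by time of LPS, with circles for replicate 1, triangles for replicate 2 and a black line at the mean. Tgfb3 and Smad3 lie above zero on 7 of 8 arrays each, with means of 0.35 and 0.27. For Smad4 all circles lie above zero and all triangles below it.

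The replicate number, which is also the dye orientation, moved the ratios of several members. Taken as a term of its own, it was called for Tgfb1, Tgfbr2, Smad2, Smad4 and Skil, the largest being 0.55 for Smad4 (adjusted p = 0.00272, limma). Across the array, 3630 features were called for this term. The median ratio of the 6 mast cell markers also differed by replicate, from -0.11 to 0.12 in replicate 1 and from 0.60 to 1.11 in replicate 2, and its part in the members' ratios was not tested. With the replicate as a block, 2 members passed in the mean over time, beside 6.01% of all features. Smad3 was higher in KO by 0.27 (95% interval without the block 0.11 to 0.43), with an adjusted p of 0.173 without and 0.0107 with the block in limma. The second, dim Smad3 probe gave 0.05, and the mean of both probes 0.16. Tgfb3 was higher by 0.35 (95% interval without the block 0.14 to 0.55), with an adjusted p of 0.157 without and 0.0286 with the block in limma. Smad3 was higher on 7 of 8 arrays, the exception being 4 h replicate 2 at -0.05, and Tgfb3 on 7 of 8, the exception being 4 h replicate 1 at -0.09. The largest ratios of both were on the array of 1 h replicate 1, at 1.16 for Tgfb3 and 0.63 for Smad3. Lymphocyte markers moved on the same array. The median ratio of the 6 T and NK cell markers was 0.97 there and between -0.40 and 0.48 on the 7 other arrays, and Cd3d had a mean ratio of 0.60 over all arrays. Their summed intensity over the time points ranged from 4404 to 17900 in WT and from 4873 to 21141 in KO, 5 of 6 were well above background throughout, and the NK marker Ncr1 was in no channel. The part of these cells in the Smad3 and Tgfb3 ratios was not tested.

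The wider pathway was read from 67 further genes in 6 lists, of which 66 were tested. In WT macrophages 10 were higher and 5 lower at 1 h, 24 higher and 13 lower at 4 h, and 11 higher and 21 lower at 24 h, and in KO 9 and 3, 27 and 13, and 9 and 21. The shares of all features called higher and lower in WT were 3.35% and 5.15%, then 15.5% and 19.2%, then 13.5% and 16.8%, and in KO 3.08% and 4.45%, then 16.2% and 19.7%, then 12.8% and 15.9%. The median difference of these genes at 4 h was 0.14 in WT and 0.12 in KO, against -0.65 and -0.66 for the 10 members. Among the ligands of the wider superfamily, Inhba, which encodes the activin A subunit, rose by 4.95 in WT and 6.13 in KO at 4 h and by 6.36 and 6.40 at 24 h. Gdf15, a stress-induced ligand, rose by 3.28 and 2.88 at 1 h and by 3.42 and 2.67 at 4 h, whereas Gdf9 differed by -1.25 and -0.91 at 1 h. The activin type II receptor gene Acvr2b fell as Tgfbr1 did, with differences of -1.32 and -1.30 after 1 h and -2.71 and -2.03 at 4 h.

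Some genes that handle the latent ligand fell at 24 h. Ltbp1, whose product tethers latent TGF-β to the matrix, differed by -2.44 in WT and -2.65 in KO. Nrros, which encodes the milieu molecule that holds latent TGF-β1 on macrophages and microglia, differed by -2.63 and -2.31, after -0.55 and -0.57 at 1 h. Itgb8, the subunit of an integrin that activates latent TGF-β, rose at 24 h and was well above background in 8 of 16 channels, so that no size is given. Of the 14 genes of this list 3 were higher and 6 lower in WT at 24 h, and 2 and 3 in KO, beside 13.5% and 16.8% of all features in WT and 12.8% and 15.9% in KO. With the replicate block 11 were called in WT and 10 in KO, beside 12769 and 12231 of all 36927 features. The median difference of the list was -0.04 in WT and -0.14 in KO.

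The 10 genes listed as induced by TGF-β did not move together. Id3, an inhibitor of DNA binding, rose by 2.20 in WT and 2.51 in KO at 1 h. Tgfbi, an extracellular matrix protein gene, differed by -2.41 and -2.59 at 4 h, and Klf10, a TGF-β inducible zinc finger gene, by -2.35 and -2.39 at 4 h and by -2.64 and -3.09 at 24 h. At 1 h 4 of the 10 were higher and 0 lower in both genotypes, beside 3.35% and 5.15% of all features in WT. In WT 4 were higher and 2 lower at 4 h (15.5% and 19.2% of all features), and 1 higher and 2 lower at 24 h (13.5% and 16.8%). From 4 h to 24 h 1 was higher and 5 lower in WT, and 0 and 6 in KO, where 15.6% and 15.1% of all features were called. Of the 12 SMAD repressors and ubiquitin ligases 5 were higher and 2 lower in WT at 4 h, and 7 and 2 in KO, beside 15.5% and 19.2% of all features in WT and 16.2% and 19.7% in KO.

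Between the genotypes, 4 of the 66 genes passed in the mean over time, beside 0.563% of all features, with Thbs1 higher and Furin, Ltbp3 and Smad6 lower in KO. Thbs1 encodes thrombospondin 1, an activator of latent TGF-β, and was higher by 0.69 ± 0.11 (SE, 8 arrays, adjusted p = 0.0452, limma). Ltbp3, another latency binding protein gene, differed by -0.41 (adjusted p = 0.0324, limma), and Smad6, an inhibitory SMAD gene well above background in 12 of 16 channels, by -0.34 (adjusted p = 0.0265, limma). Furin itself differed by -0.44 (adjusted p = 0.0220, limma). These calls rested on all 8 arrays. Without a single array none of the 4 passed, except Thbs1 without 1 h replicate 1 (0.82, adjusted p = 0.0160, limma) and Furin without 24 h replicate 1 (-0.45, adjusted p = 0.0437, limma), and with the processed signals none passed. Thbs1 also missed the threshold with the mean of all probes (adjusted p = 0.0631, limma), among genes well above background (adjusted p = 0.0549, limma) and without both 4 h arrays (0.50, adjusted p = 0.214, limma), where Ltbp3 was lost as well (adjusted p = 0.0771, limma). The differences kept their direction in each of these settings. At single time points none of the 66 passed. With the replicate block 12 passed in the mean, where 6.01% of all features did, and 4, 3, 3 and 3 passed without LPS and after 1, 4 and 24 h, Furin among them at all times but 4 h, beside 393, 213, 210 and 216 of all 36947 features.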

How the data were processed

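RNA of peritoneal macrophages was hybridised to 2-colour mouse arrays of 62976 spots, and according to the submitters' processing notes the authors read them with Agilent Feature Extraction 10.7.3. The deposited scanner files hold spot intensity on a linear scale, and a deposited table holds log2 ratios, used only as an alternative. The median intensity of each spot was corrected for its median background with normexp (offset 50), normalized by loess within arrays and by quantiles between arrays in limma 3.58.1 (R 4.3.3, statmod 1.5.0), after leaving out control spots and outlier flags. Spots of a probe were averaged, and each gene was taken as its brightest probe. Of 55681 gene probes 27509 were named through RefSeq, giving 20887 genes, and 5512 genes had more than 1 probe. Quantile normalization holds the channel distributions alike, so changes are relative to the other genes.

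KO over WT was fitted as the ratio within arrays, and LPS effects as single channels with a within-spot correlation of 0.116, kept when an array was left out, since it could not be estimated anew. The filter was a mean log2 intensity of 6. Same-numbered replicates deviated together across time points (r of 0.475 to 0.679 over the 6 pairs of time points). They also share the dye orientation, so this cannot show that the numbers pair the arrays by biological material. An alternative fit took the numbers as a replicate block, which holds replicate and dye together. Named were all members, Furin, Lyz2, pathway genes called between genotypes, and at each LPS time up to 3 pathway genes with the largest rise and the largest fall in both genotypes, and some genes that this rule names are not reported here. The members and lists were chosen with earlier results of these data known. Each arm rests on 2 arrays, which limits the precision. The fits were also run on simulated data with independent noise and no replicate or dye effect, so those runs do not cover such effects. The growth protocol in the labels describes 4 h of stimulation for all samples, and time was taken from the sample titles.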

Additional observations from a re-analysis of the deposited data

How the results depend on the processing

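Of the KO against WT results, 0 of 640 values without an array and 0 of 680 under other settings gained a call, and the replicate block added 2 (Tgfb3 and Smad3), with 2 of the 10 members called in the mean over time. Leaving out both 4 h arrays, where Furin was not lower in KO, was added after seeing the data and gave 0 members without and 2 with the replicate block (Tgfb3 0.43, Smad3 0.30), beside 37 and 1770 of all features. Of the LPS results, 336 called values per group of settings were followed: 15 were lost and 8 gained when an array was left out, and 14 were lost and 12 gained under other settings. The replicate block lost none of 42 and gained 7, so that 8 members were called in WT at 24 h against 5, while all features called there went from 11219 to 12769. Between 4 h and 24 h in WT, 3 members were called with the scanner's processed signals and 3 to 5 when an array was left out, against 5, beside 10235 and 8791 to 10740 of all features, against 10972. Tgfbr1 reversed between 4 h and 24 h without normalization between arrays, to 0.468 in WT and 0.165 in KO, and the cause was not tested. That setting moved the share of all calls that were higher from 44.6% to 27.8% in WT at 4 h and from 50.9% to 79.8% between 4 h and 24 h, the processed signals to 26.2% and 69.4%. The processed signals also moved the median of all features by up to -0.35 (KO, 24 h). Dim probes such as Tgfb3 limit what small changes can be seen.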
